A study of Mus musculus with 3 samples.

Results

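The comparison set Malat1 RIA-seq directly against Tfrc RIA-seq, so that a pull-down aimed at a mainly nuclear long noncoding RNA was read against a pull-down aimed at an mRNA. It used 2 of the 3 libraries of the study, and Actb RIA-seq was left out of the ratio and is quoted as a background value beside named genes and classes. Counts listed under the same gene symbol and chromosome were summed, and only genes that reached 10 counts with both targets were kept, which left 16430 of the 26887 genes listed in any library. The Malat1/Tfrc fold is the share of a gene in Malat1 RIA-seq divided by its share in Tfrc RIA-seq, so that values above 1 mean more of that RNA with the Malat1 oligonucleotides. Of the remaining genes, 434 reached 10 counts only in Malat1 RIA-seq, 1481 only in Tfrc RIA-seq and 8542 in neither.

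RIA-seq recovers RNA that is held together with a chosen RNA in fixed cells. All 3 libraries came from undifferentiated E14 mouse embryonic stem (ES) cells of the 129/Ola strain, grown without feeder cells in medium with LIF, a cytokine that keeps them undifferentiated. The cells were crosslinked in 1% glutaraldehyde over 10 min and sheared by sonication, and antisense oligonucleotides to Malat1, Tfrc or, in the control, Actb were annealed to the material at 37 °C overnight. Streptavidin beads collected the bound material, and the eluted RNA was treated with DNase, copied with the Ovation V2 kit of NuGEN and made into a KAPA library, with 1 library per target. Malat1 is an abundant long noncoding RNA that is mostly nuclear and gathers in nuclear speckles, the bodies in which splicing factors are stored, and in ES cells part of it is also found in the cytoplasm. Tfrc encodes the transferrin receptor, a membrane protein for iron uptake that is translated at the endoplasmic reticulum (ER), and its mRNA is stabilized by iron regulatory proteins when iron is scarce.

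Malat1 RIA-seq held 10078439 counts and Tfrc RIA-seq 14553941, and 3 counts, the limit that a count of 0 allows, were 0.298 and 0.206 CPM (counts per 1000000 of the library). No replicate was at hand for either target, so no spread between replicates was known and no test between conditions was made. Intervals are at the 95% level and cover counting error only, since the reads carried no molecular identifiers. A difference in preparation between the libraries cannot be told apart from a difference between the targets, and a share of a library does not tell more cells with an RNA from more RNA per cell. Each gene could have an Ensembl-ID count and a Genome count, listed under its Ensembl identifier and under the name Genome. Genome counts took 19.04% of Malat1 RIA-seq (95% Wilson interval 19.01 to 19.06) and 15.1% of Tfrc RIA-seq (15.08 to 15.12). The 10 ES cell markers, which include Pou5f1, Sox2 and Nanog, all passed the minimum and took 0.407% and 0.453% of these libraries. Of fibroblast markers 3 of 7 passed, of endoderm markers 3 of 5 and of mesoderm markers 1 of 3, while the 3 neural markers listed took 0.00314% and 0.00337%.

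Most RNAs differed by under 2-fold between the 2 libraries. The median Malat1/Tfrc fold was 1.15, which is 0.21 on the log2 scale, with an interquartile range of 0.932 to 1.38, and 67.9% of the genes lay above 1. At least 2-fold higher in the Malat1 library were 714 genes (4.35% of those tested), and at least 2-fold lower were 316 (1.92%). The most abundant genes took more of the Tfrc library than of the Malat1 library, as the top 10 genes of each library held 33.4% and 23.6%. Setting the median fold to 1 gave 357 higher and 598 lower genes, so the balance of the calls depended on the scaling, and lists are read below against the median of 1.15. Most calls rested on few counts. Among 2985 genes with a smaller count of 10 to under 30, 342 were higher and 224 lower, whereas among 8012 genes with 100 to under 1000 there were 147 and 19. Just outside the minimum, 269 genes with a smaller count of 9 had a median fold of 1.000, and just inside it 249 genes with a smaller count of 10 had 0.963.

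**Figure D1:**
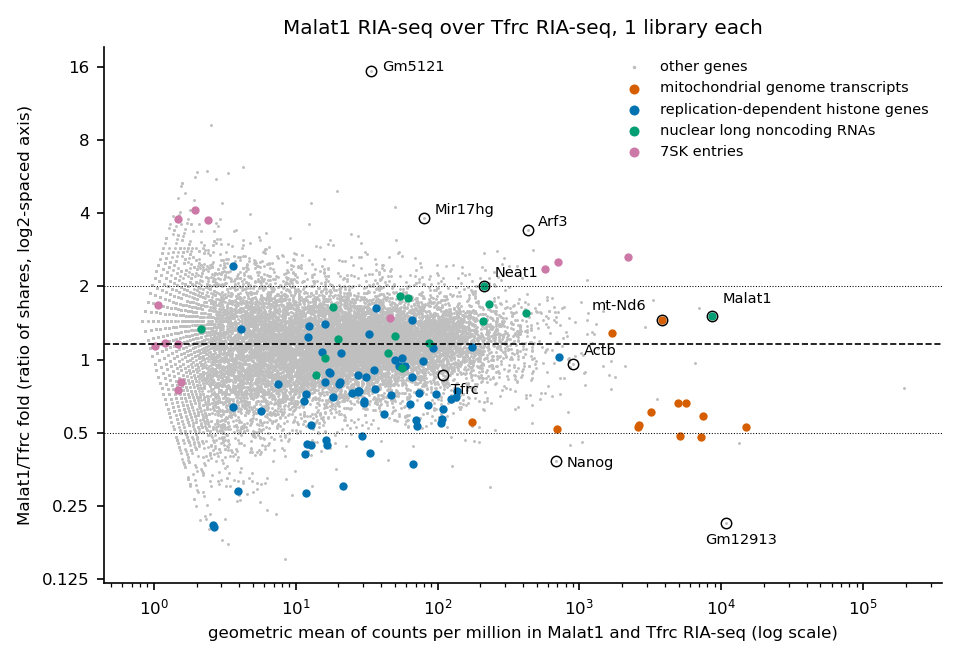
Malat1/Tfrc fold (vertical axis, log2 spacing) against the geometric mean of CPM in the same libraries (horizontal axis, log scale), 1 point per gene, with the median fold of 1.15 dashed and folds of 2 and 0.5 dotted. Most mitochondrial and histone points lie below the dashed line, the abundant 7SK entries lie near a fold of 2.5, and Gm5121 stands alone at 15.4.

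The targets themselves differed by under 2-fold between the libraries. Malat1 (chromosome 19 of NCBIM37, 5795690 to 5802671, minus strand) had 10657 CPM in the Malat1 library and 7041 in the Tfrc library, against 1834 in the Actb library. Its fold was 1.51 (1.501 to 1.527), higher than that of 83.6% of the genes. Tfrc (chromosome 16, 32609006 to 32632880, plus strand) had 101 CPM in the Malat1 library and 117 in the Tfrc library, against 43.5 in the Actb library. Its fold was 0.864 (0.7999 to 0.9341), and 19.01% of the genes had a lower value. Both targets therefore lay on the side of their own oligonucleotides. The Tfrc fold was 0.905 (0.831 to 0.984) from its Ensembl-ID counts and 0.679 (0.557 to 0.829) from its Genome counts, 143 against 304. Actb, the target of the library left out, had 889 and 924 CPM and a fold of 0.963.

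In the Malat1/Tfrc fold, the RNAs that the study examined by name as Malat1 partners, Tfrc among them, did not share a direction. The study set Malat1 RIA-seq against Actb RIA-seq, whereas the denominator here is the pull-down of a partner, Tfrc. Against the Actb library all of them were higher in the Malat1 library, which does not by itself set an RNA apart. The 340 zinc finger protein (Zfp) genes took 0.995% of the Malat1 library against 0.477% of the Actb library. Replication-dependent histone genes went the other way, with 0.320% against 0.464%. The 10 most counted genes held 23.6% of the Malat1 library and 52.7% of the Actb library. In CPM, Slc2a3 had 1001 against 436 and Eif4a2 376 against 229. For 0610007P14Rik the values were 33.7 against 20.7, and for Tfrc 101 against 43.5. The study reported larger increases for Slc2a3, Eif4a2 and 0610007P14Rik than these shares give, and a similar one for Tfrc. The reason for the difference was not tested. Slc2a3, which encodes a neuronal-type glucose transporter also made in ES cells, had 10089 counts in the Malat1 library and 8851 in the Tfrc library, with folds of 1.65 (1.60 to 1.70) from Ensembl-ID counts and 1.57 (1.39 to 1.77) from Genome counts. It stood above 89.1% of the genes. Eif4a2, a helicase gene of translation initiation, had 3788 and 6086 counts, and its folds were 0.873 from Ensembl-ID counts and 1.35 (1.16 to 1.57) from Genome counts. The gene listed as 0610007P14Rik (RefSeq symbol Erg28), which acts in sterol synthesis, had an Ensembl-ID fold of 0.993 (0.843 to 1.17) and a Genome fold of 2.36 (1.71 to 3.25). Slc2a3 was thus above 1 and Tfrc below 1 with either kind of count, while Eif4a2 and 0610007P14Rik changed sides with it.

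Nuclear long noncoding RNAs were on the whole higher with the Malat1 oligonucleotides. Of 17 listed, 16 passed the minimum, and 12 had a fold above the median of all genes. Their own median was 1.39, above that of all genes under 11 of 11 alternatives. The 16 and the 12 include Malat1 itself at 1.51, the target of the oligonucleotides, which says nothing about the rest of the list. Neat1, the scaffold of paraspeckles and the neighbour of Malat1 on chromosome 19 (5824708 to 5845478, minus strand), had 564 counts in the Actb library, 3043 in the Malat1 library and 2178 in the Tfrc library. Its fold was 2.02 (1.91 to 2.13), and it was the only member of the list past 2-fold, which is 6.25% of the list against 4.35% of all genes. It lies 22 kb from Malat1, and 80 genes within 1000 kb of Malat1 had a median fold of 1.08, with 4 higher and 0 lower, below the median of all genes. Next came Tsix, the antisense transcript of Xist, with 744 and 587 counts and a fold of 1.83 (1.64 to 2.04). Xist, the RNA that silences an X chromosome, had 945 and 1166 counts and 1.17 (1.07 to 1.28). Whether counting used the strand is not given in the sources used here, so reads of Tsix and Xist may be mixed where they overlap. The RNAs of the imprinted Dlk1-Dio3 region had folds of 1.80 for Mirg, 1.69 for Meg3 and 1.44 for Rian. The lowest values were 0.861 (0.693 to 1.07) for H19, an imprinted RNA that is exported to the cytoplasm, and 0.922 for Dleu2.

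Genes for the protein machinery of the same nuclear bodies stood closer to the median. The 12 scaffold and kinase genes of nuclear speckles, such as Srrm2, Son and the Clk and Srpk kinases of SR proteins, had a median of 1.27, and 9 lay above the median of all genes. Prpf4b, a kinase of the spliceosome, was highest at 1.51 with 2019 and 1930 counts, and Clk1 was lowest at 0.939 with 759 and 1167. None of the 12 reached 2-fold in either direction. The 14 SR splicing factor genes had a median of 1.12, from 0.709 for Srsf9 to 1.49 for Sfrs18. The 13 paraspeckle protein genes had 1.14 and the 24 hnRNP genes 1.14, with no call in either list. No member of these lists reached the fold of Neat1. The 8 small nucleolar RNA host genes had a median of 1.29, from 0.858 for Snhg3 to 1.84 for Snhg7.

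The 7SK RNA, which holds the elongation factor P-TEFb inactive in the nucleus, was an abundant RNA with a clear excess in the Malat1 library. It was chosen after its values were seen. Its 13 entries past the minimum, of 19 listed, took 0.222% of the Actb library, 0.567% of the Malat1 library and 0.222% of the Tfrc library, a summed fold of 2.55 (2.51 to 2.58). Of these entries 6 were higher (46.2%, against 4.35% of all genes) and 0 lower (against 1.92%). The entry on chromosome 9 had 15163, 36265 and 19795 counts in the Actb, Malat1 and Tfrc libraries and a fold of 2.65 (2.60 to 2.69). Those on chromosomes 15 and 2 had 2.52 and 2.36, and that on chromosome X 1.48. These entries are copies of the same RNA and may share reads, so they count as a single observation. Unlike Neat1 and Malat1, 7SK was at the same share in the Tfrc library as in the Actb library. An equal share is not shown to be an unchanged level, since other lists differed between these libraries. Zfp genes took 0.857% of the Tfrc library and 0.477% of the Actb library, and replication-dependent histone genes 0.403% and 0.464%.

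Small nucleolar RNAs (snoRNAs), which guide the modification of ribosomal RNA, gave calls more often than all genes together did. Of 556 listed, 69 passed the minimum, 17 were higher (24.6% against 4.35% of all genes) and 5 lower (7.25% against 1.92%), and the median was 1.52. Most of them had Genome counts alone. The 25 entries past the minimum by Ensembl-ID counts had a median of 1.07, below the 1.11 of all genes by those counts. The 44 entries past the minimum by Genome counts had a median of 1.60, against 1.28 for all genes by Genome counts. By Genome counts 9.86% of all genes were higher, and 37.5% of genes with a single exon. The snoU83B entry on chromosome 15 had 46 counts in the Actb library, 507 in the Malat1 library and 243 in the Tfrc library, a fold of 3.01 (2.59 to 3.51). In the other direction stood snoZ40, with 1147, 3488 and 9181 counts and a fold of 0.549 (0.528 to 0.570). With snoZ40 included, the summed fold of the class was 0.902, on the other side of 1 from its median. The U3 snoRNA, which acts in ribosomal RNA cleavage, had 3 entries with a summed fold of 2.76 (2.26 to 3.37), on 139 against 94 counts for the largest. RNase MRP, another nucleolar RNA, had 176 and 322 counts and a fold of 0.789 (0.657 to 0.948).

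The precursor of the miR-17 to miR-92a cluster was among the genes with the highest folds. Mir17hg (chromosome 14, 115442101 to 115445949, plus strand) had 227 counts in the Actb library, 1590 in the Malat1 library and 600 in the Tfrc library, a fold of 3.83 (3.48 to 4.20). The Genome counts of this transcript, 1073 against 195, gave 7.95 (6.82 to 9.26), and its Ensembl-ID counts, 517 against 405, gave 1.84 (1.62 to 2.10). Another polycistronic microRNA locus, the ES cell cluster miR-290 to miR-295 on chromosome 7, was represented by hairpin entries with Genome counts only. Of its 7 hairpins 6 passed and 3 were higher, with a median of 1.80, and this locus was looked up after Mir17hg was seen. All but Mir292 of the 3 had fewer than 30 counts in a library, a range in which 11.5% of all genes were higher, against 4.35% overall. Mir292 had 177 and 119 counts and a fold of 2.15 (1.70 to 2.71), while Mir295 had 50 and 61 counts and 1.18 (0.814 to 1.72). Some of the mature microRNAs that these precursors carry are shown as known products, with a single arm of each. For the ES cell cluster these are products of Mir291a, Mir294 and Mir295, and that of Mir292 is not shown. They come from RefSeq (GRCm38.p6), are written 5′ to 3′, and the capitals mark the seed at bases 2 to 8.
mmu-miR-17-5p: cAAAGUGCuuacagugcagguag
mmu-miR-20a-5p: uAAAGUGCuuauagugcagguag
mmu-miR-18a-5p: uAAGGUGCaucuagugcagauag
mmu-miR-19a-3p: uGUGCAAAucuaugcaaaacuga
mmu-miR-19b-3p: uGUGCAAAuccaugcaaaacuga
mmu-miR-92a-3p: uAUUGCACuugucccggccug
mmu-miR-291a-3p: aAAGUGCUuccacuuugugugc
mmu-miR-294-3p: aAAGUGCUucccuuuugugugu
mmu-miR-295-3p: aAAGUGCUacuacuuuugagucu
In the Mir17hg cluster miR-17 shares its seed with miR-20a and miR-19a with miR-19b, and the 3 ES cell microRNAs shown share another, which differs from that of miR-17 by a shift along the same bases. The counts are on precursors or their genes, and the library preparation was not stated to keep RNAs as short as the mature forms.

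By gene type, lincRNA genes and processed transcripts lay above protein-coding genes. The median fold was 1.25 in 674 lincRNA genes and 1.25 in 549 genes of processed transcripts, against 1.15 in 13989 protein-coding genes. Genes at least 2-fold higher made up 8.16% of the lincRNA genes, 12.2% of the processed transcripts and 3.20% of the protein-coding genes, against 4.35% of all genes. The lower genes made up 1.34%, 1.82% and 1.68%, against 1.92%. These shares are not matched for counts. At least 100 counts in both libraries were reached by 190 of the lincRNA genes, 108 of the processed transcripts and 9074 of the protein-coding genes. Over all genes, 11.5% were higher at a smaller count of 10 to under 30, and 1.83% at 100 to under 1000. The 86 genes of the type misc_RNA, which holds the 7SK entries among others, had a median of 1.13. The lincRNA with the highest fold among those with at least 100 counts was Gm17718, with 256 and 143 counts and 2.59 (2.11 to 3.17), and the lowest was Gm16869 with 2789 and 6438 counts and 0.626. Gm16869 is also among 14 satellite-like predicted genes, all of which passed and which had a median of 0.783. These predicted genes may share reads with each other. Gm10800, the lowest of them with at least 100 counts, had 864 and 2605 counts and a fold of 0.479.

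Transcripts of the mitochondrial genome showed the clearest class difference in the other direction. They took 4.72% of the Malat1 library and 7.81% of the Tfrc library, against 4.66% of the Actb library. The Actb share is not a neutral level, so these values do not tell which of the 2 libraries departed. Zfp genes took 0.995% of the Malat1 library and 0.857% of the Tfrc library, against 0.477% of the Actb library. For replication-dependent histone genes the values were 0.320% and 0.403%, against 0.464%. All 13 listed genes passed, and the median fold was 0.554. The 12 genes on the plus strand had a median of 0.545. The most abundant, mt-Co1, a subunit of cytochrome c oxidase, had 168729, 108820 and 296890 counts in the Actb, Malat1 and Tfrc libraries and a fold of 0.529 (0.526 to 0.533). Another oxidase subunit, mt-Co2, had 50429 against 151938 counts and the lowest fold, 0.479 (0.475 to 0.484), and mt-Nd1 of complex I had 0.484. These were the only 2 of the 13 at least 2-fold lower (15.4%, against 1.92% of all genes). Not all followed: mt-Nd6, the gene on the minus strand, had 12231, 46566 and 46326 counts and a fold of 1.45 (1.43 to 1.47). On the plus strand mt-Nd4l had 19303 against 21671 counts and 1.29. Reads of mt-Nd6 and of the antisense strand of its neighbours cannot be told apart unless counting used the strand. All mitochondrial counts were Ensembl-ID counts. The nuclear genes for the same respiratory complexes lay closer to the median of all genes, as 90 of them had a median of 1.04. Of these, 3 were higher (3.33%, against 4.35% of all genes) and 0 lower (against 1.92%). The 76 mitochondrial ribosomal protein genes had 1.16.

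**Figure D2:**
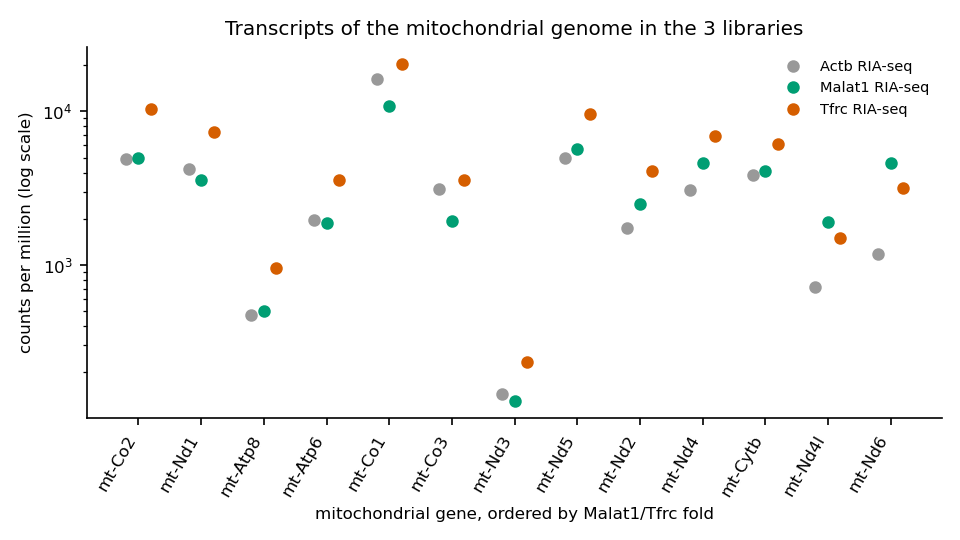
CPM (log scale) of the 13 mitochondrial genes in the 3 libraries, ordered by Malat1/Tfrc fold, with 1 point per library and no error bars. The Tfrc library is the highest library for 11 genes, and the Malat1 library is the highest for mt-Nd4l and mt-Nd6 at the right.

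Replication-dependent histone genes were the other large class that was higher with the Tfrc oligonucleotides. Their mRNAs end in a stem-loop in place of a poly(A) tail and are made in S phase. Of 70 listed, 68 passed, 13 were lower and 1 higher, and the median fold was 0.725. Lower genes made up 19.1% of the list, against 1.92% of all genes tested. The 12 H3 genes had the lowest median, 0.457, with 8 lower, followed by 18 H2B genes at 0.696, 20 H2A genes at 0.774, 13 H4 genes at 0.808 and 5 H1 genes at 1.12. Hist1h3f had 424, 63 and 322 counts in the Actb, Malat1 and Tfrc libraries and a fold of 0.283 (0.216 to 0.370). Hist1h2bm had 985, 411 and 1603 counts and 0.370 (0.332 to 0.413). Exceptions within the families were Hist1h3d, with 474 against 418 counts and 1.64 (1.44 to 1.87), and Hist3h2ba, with 57 against 34 counts and 2.42 (1.58 to 3.70). For most histone genes the share in the Actb library was at least that in the Tfrc library, and the class took 0.464% of the Actb library, 0.320% of the Malat1 library and 0.403% of the Tfrc library. Histone genes of a family are near-identical in sequence and may share reads. Genome counts passed the minimum in 10 of these genes and had a median fold of 1.64, above the 1.28 of all genes by Genome counts.

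The 3′ ends of these genes were searched on the sense strand for the histone stem-loop motif, from 250 bases before to 150 bases after the annotated gene end. A match was found in 45 of 14753 protein-coding genes and pseudogenes (0.305%). Of these 44 were histone genes (64.7% of the 68) and 1 was not in the histone list. Histone genes with a match had a median fold of 0.711, and the 24 without a match 0.733, so the medians on either side of the match were close. No match says only that these letters are not in the window. Examples across the range of folds are shown, read from NCBIM37 on the strand of the gene and written 5′ to 3′ with the match in capitals.
Hist4h4 (chr6:136752514-136752539, minus strand, fold 0.204): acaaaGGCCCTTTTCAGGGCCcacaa
Hist1h3f (chr13:23636796-23636821, plus strand, fold 0.283): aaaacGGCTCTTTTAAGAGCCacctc
Hist1h2bm (chr13:21814370-21814395, plus strand, fold 0.370): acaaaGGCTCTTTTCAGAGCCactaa
Hist1h4d (chr13:23673814-23673839, plus strand, fold 1.02): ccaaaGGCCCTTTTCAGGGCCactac
Hist1h1e (chr13:23713646-23713671, minus strand, fold 1.12): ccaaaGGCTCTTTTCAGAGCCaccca
Hist3h2ba (chr11:58762846-58762871, plus strand, fold 2.42): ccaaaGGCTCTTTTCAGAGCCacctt
The matches of Hist4h4 and Hist1h4d are the same 16 letters, as are those of Hist1h2bm, Hist1h1e and Hist3h2ba, at folds on either side of the class median.

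**Figure D3:**
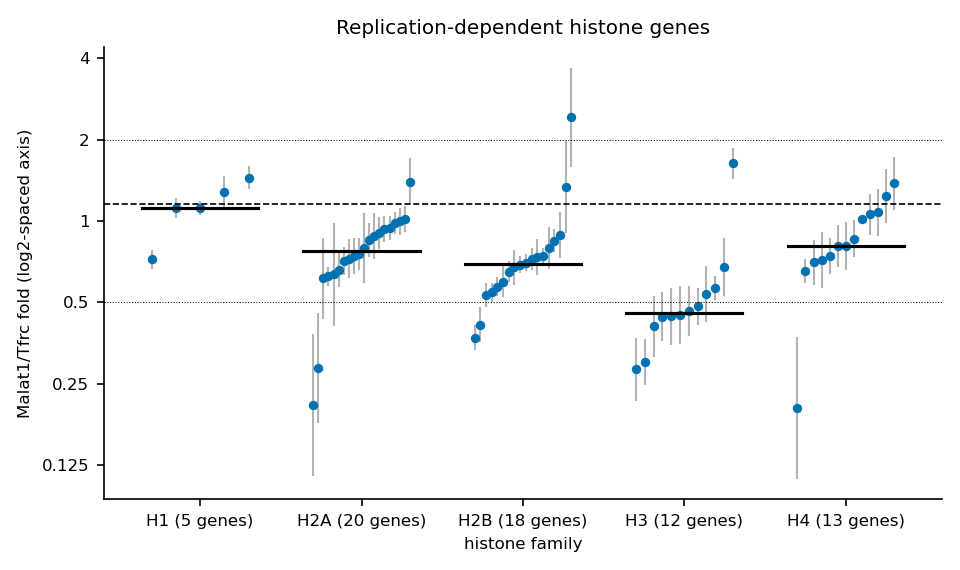
Malat1/Tfrc folds of 68 replication-dependent histone genes by family (log2 spacing), with 95% counting intervals as vertical bars, family medians as thick lines and the all-gene median of 1.15 dashed. The H3 family lies lowest, with 8 of 12 genes at or below 0.5, and H1 lies around the dashed line.

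Some mRNAs of ES cell regulators were far apart between the libraries. Of 28 pluripotency genes listed, 27 passed, with a median of 1.14. Of these, 0 were higher (against 4.35% of all genes) and 2 lower (7.41%, against 1.92%). Nanog, a core transcription factor of ES cells (chromosome 6, 122657507 to 122664651, plus strand), had 8043 counts in the Actb library, 4257 in the Malat1 library and 16082 in the Tfrc library. The fold of Nanog was 0.382 (0.370 to 0.395) and rested on its Ensembl-ID counts, 3945 against 15680, whereas its Genome counts, 312 against 402, gave 1.12 (0.967 to 1.30). Utf1, a chromatin factor of undifferentiated cells, had 2206, 1244 and 3901 counts and a fold of 0.461 (0.432 to 0.491). Its Genome counts, 43 in both libraries together, gave 2.44 (1.31 to 4.52). At the other end, Pou5f1, which encodes Oct4, had 3875, 7983 and 6368 counts and 1.81 (1.75 to 1.87), L1td1 had 1.70 and Sall4 1.64. Sox2, the partner of Oct4, stood near the median at 1.21. The factors of the same network were therefore on both sides of the median, from 0.382 to 1.81.

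mRNAs for proteins that pass through the ER were examined because Tfrc is such an mRNA, and they were not higher in the Tfrc library. The 40 cell surface and matrix protein genes had a median fold of 1.30, and 31 of them lay above the median of all genes. Cd63, a membrane protein of late endosomes, had 213 and 130 counts and 2.37 (1.90 to 2.94), and the lowest was Cd9 at 0.867. The 23 genes of ER chaperones and the translocon had the highest median of any list of mRNAs, 1.40. Hspa5, the main chaperone of the ER lumen, had 2418 and 1801 counts and a fold of 1.94 (1.82 to 2.06), and Sec61g of the translocon had 1295 and 917 counts and 2.04 (1.87 to 2.22). The list lay above the median of all genes under 9 of 11 alternatives and below it when Genome counts were used alone. For Sec61g these gave 0.582 (0.378 to 0.895). The 25 sterol synthesis genes, many of whose enzymes sit in the ER membrane, had 1.30, from 0.701 for Idi1 to 2.01 for Ebp. Genes for solute carriers (241 genes, median 1.17) and Tmem proteins (170 genes, 1.202) lay near the median of all genes.

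Genes of iron handling, to which Tfrc belongs, were on the side of the Tfrc library in their Ensembl-ID counts. Tfrc itself is the target of the oligonucleotides and says nothing about the other genes. Of 16 listed, 15 passed, 3 lay above the median of all genes, and their median was 0.949, or 0.871 from Ensembl-ID counts and 1.42 from Genome counts. Fth1, the heavy chain of the iron store ferritin, had 1920 counts in the Actb library, 1254 in the Malat1 library and 2650 in the Tfrc library. Its fold was 0.683 (0.639 to 0.731), lower than that of Tfrc itself. In CPM, Fth1 had 184.5 in the Actb library, 124.4 in the Malat1 library and 182.1 in the Tfrc library, so the Tfrc library was not above the Actb library. The light chain gene Ftl1 had 1596 and 2716 counts and 0.849, and Ireb2, which encodes an iron regulatory protein, had 0.886. The highest was Hmox1, which encodes haem oxygenase, with 1030 and 717 counts and 2.07 (1.89 to 2.28). The 18 genes of clathrin and endocytosis, the route by which the receptor is taken up, had a median of 1.04.

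Other cytoplasmic mRNA families spread around the median of all genes. The 85 cytosolic ribosomal protein genes had 1.06, with 4 higher (4.71%, against 4.35% of all genes) and 0 lower (against 1.92%). Rpl10l was highest of them at 2.65, and reads of these genes may be shared with processed pseudogenes. The 25 elongation and initiation factor genes had 1.19, with Eef1d highest at 2.04 and Eef1a1 lowest at 0.844. Among the 20 glycolysis genes, median 1.12, Aldoc had 2.10 on 147 and 101 counts and Gapdh 0.727 on 4950 and 9838. The 28 Polycomb genes had 1.05, with Jarid2 highest at 1.55, and the 16 DNA methylation genes 1.15, with Tet1 at 1.58 and Tet2 at 1.56. Hsp90ab1, an abundant cytosolic chaperone mRNA, had 90531 and 79996 counts and 1.63, while 18 cytosolic chaperone genes together had a median of 1.11. The 38 proteasome subunit genes had 1.23, with Psma4 apart at 0.363. The 28 nucleolar assembly genes had 1.23, the 37 aminoacyl-tRNA synthetase genes 1.23, the 340 Zfp genes 1.13, the 13 tubulin genes 1.04 and the 5 actin genes 1.06.

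**Figure D4:**
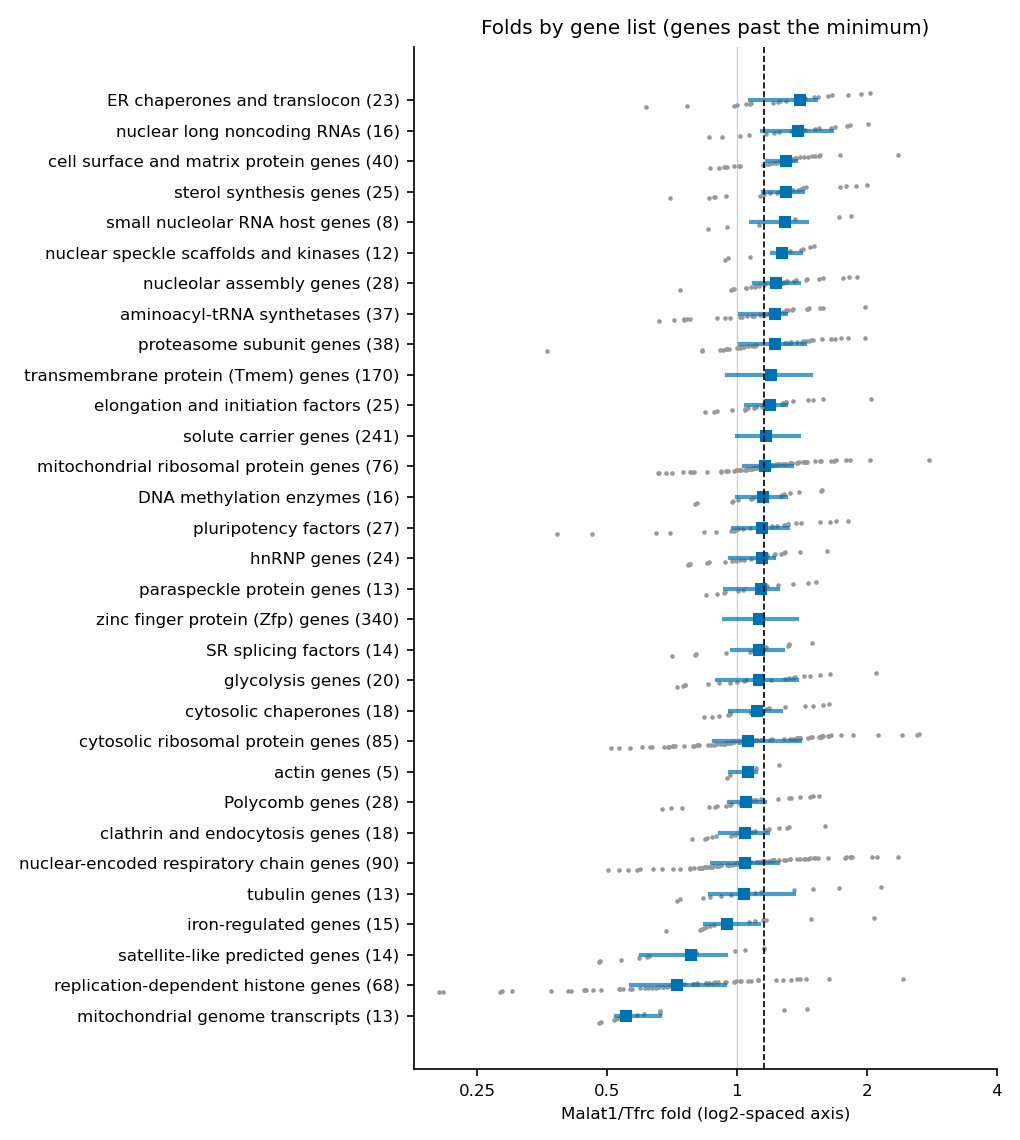
Malat1/Tfrc folds by gene list (log2 spacing), with the number of genes past the minimum in parentheses, squares at the median, bars over the interquartile range and grey points for single genes in lists of up to 100. The all-gene median of 1.15 is dashed, ER and nuclear RNA lists lie to its right, and mitochondrial, histone, satellite-like and iron lists lie furthest to its left.

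The single genes with the highest folds, among those with at least 100 counts in both libraries, were of several kinds. Gm5121 (chromosome 9, 57181920 to 57182598, plus strand), a predicted gene, had 104 counts in the Actb library, 1352 in the Malat1 library and 127 in the Tfrc library, a fold of 15.4 (12.8 to 18.4). All of these counts were Ensembl-ID counts. The exon of Gm5121 shares 59.4% of its 20-base stretches with Gm15501, which had 3432 and 3449 counts and a fold of 1.44, so the excess was not seen in the copy with the most shared sequence. Gm5121 shares no 20-base stretch with Malat1. In all, 4.70% of 681 higher genes shared such a stretch with Malat1 on the same strand, against 6.94% of all 16124 genes searched. On the opposite strand the values were 2.94% and 7.31%. Of 308 lower genes, 3.90% shared a stretch on the same strand and 3.57% on the opposite strand, which is also less than in all genes. The higher genes had shorter exon sequences, with a median of 1958 bases against 3344.5, so these shares are not matched for length. Gm14138, a pseudogene, had 1047 and 357 counts and 4.24 (3.76 to 4.78), and it shares 54.8% of its stretches with Gm13654, which had 1.22. Sspn, a gene of the dystrophin complex, had 4.95 (4.06 to 6.03), and all 435 of its counts in the Malat1 library and 122 of 127 in the Tfrc library were Genome counts.

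Arf3, a small GTPase gene of the Golgi, was the most abundant mRNA among them, and both kinds of count placed it higher in the Malat1 library. It had 2215, 8072 and 3402 counts in the Actb, Malat1 and Tfrc libraries and a fold of 3.43 (3.29 to 3.57), with 3.46 from Ensembl-ID counts and 2.02 (1.503 to 2.719) from Genome counts. The other genes of this set were Spock2 at 3.29, RP23-381B19.7 at 3.23, Cyp2e1 at 3.11 and Gm11935 at 3.11. The exons of Arf3, Spock2 and Cyp2e1 share short stretches with between 955 and 1942 other genes. Genes past 2-fold with both kinds of count, beside Arf3 and Gm11935, were led by Lat2 at 3.54, Trim46 at 2.97 and Zw10, a kinetochore gene, at 2.77 (2.39 to 3.22).

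The lowest folds were led by Gm12913, a pseudogene on chromosome 4, with 635688, 50472 and 344397 counts in the Actb, Malat1 and Tfrc libraries and a fold of 0.212 (0.210 to 0.214). Mt1, a metallothionein gene that responds to metals, had 293, 115 and 468 counts and 0.355 (0.289 to 0.435). Psma4, a proteasome subunit gene, had 2208, 774 and 3082 counts and 0.363, from Ensembl-ID counts of 625 against 2961, while its Genome counts, 149 against 121, gave 1.78 (1.40 to 2.26). In CPM, the Malat1 library was the lowest of the 3 libraries for every gene named from this set. Fam166a at 0.384, Mospd3 at 0.434 and the histone genes Hist1h3g at 0.301 and Hist1h2bh at 0.414 also belonged to the set. Only 4 genes were at least 2-fold lower with both kinds of count, and they were Npr3 at 0.385, Ap3s1 at 0.403, Prrg1 at 0.442 and 3110057O12Rik at 0.474, with 21 to 82 counts in the Malat1 library.

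Ensembl-ID counts and Genome counts gave different lists of genes. From Ensembl-ID counts alone, 634 of 14387 genes were higher (4.41%) and 274 lower (1.9%), with a median fold of 1.11. From Genome counts alone, 1138 of 11544 genes were higher (9.86%) and 189 lower (1.64%), with a median of 1.28. Across the 10137 genes past the minimum with both kinds, which are not independent replicates, the folds had a Spearman correlation of 0.0575. Of these genes 327 were higher by Ensembl-ID counts and 993 by Genome counts, and 49 by both, which is 15.0% of the former and 4.93% of the latter. Lower by both were 4 of 113 and 82. Within genes of at least 100 summed counts, the Genome share of the counts had a median of 24.7% in the Malat1 library and 21.8% in the Tfrc library and was higher in the Malat1 library in 5861 of 9768 genes.

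The Genome fold varied with the structure of genes more than the Ensembl-ID fold did. When genes with introns were divided into 5 equal groups by summed intron length, the median Genome fold went from 1.40 in the group with the shortest introns to 1.16 in that with the longest. Genes at least 2-fold higher by Genome counts went from 19.4% of the shortest group to 0.982% of the longest, and genes at least 2-fold lower from 1.16% to 4.73%. The Ensembl-ID medians over such groups lay between 1.10 and 1.13. With the GC content of the exons, the median Genome fold was 1.07 in the lowest of 5 equal groups and 1.41 in the fourth, while the Ensembl-ID median was 1.18 in the middle group and 0.990 in the highest. Genome counts on 176 genes with a single exon had a median fold of 1.71. The correlation of the Genome fold with intron length across 11204 genes was -0.219 (Spearman), and with GC content across 11380 genes 0.237. The points share their libraries, and the part that the number of counts plays in these values was not tested.

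**Figure D5:**
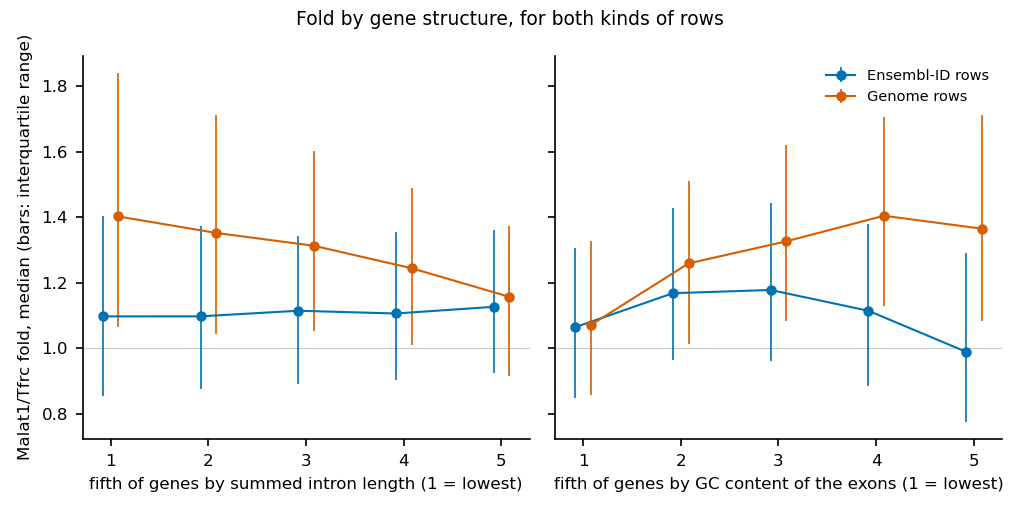
Median Malat1/Tfrc fold in 5 equal groups of genes by summed intron length (left) and by GC content of the exons (right), for Ensembl-ID and Genome counts, with bars over the interquartile range. The Genome medians fall from 1.40 to 1.16 with intron length and the Ensembl-ID medians stay between 1.10 and 1.13.

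Genes that reached 10 counts in a single library differed by side. The 1481 genes counted only in the Tfrc library, the deeper library, had a median length of 15.5 kb, against 20.2 kb for the genes past the minimum in both. Of their Tfrc counts 53.6% were Genome counts, against 15.0% for the genes past the minimum in both and 46.5% for those past it in neither. The most counted of the 1481 was Lrrc4c, a synaptic adhesion gene that spans 1313498 bases. It had 14, 4 and 104 counts in the Actb, Malat1 and Tfrc libraries, of which 99 in the Tfrc library were Genome counts. Then came Sorcs3, a neuronal receptor gene, with 8 counts in the Malat1 library and 77 in the Tfrc library, all on Genome, and Mdga2, a neuronal adhesion gene, with 4 and 76. The fold of Lrrc4c was 0.0555 (0.0205 to 0.151) and that of Mdga2 0.0760 (0.0278 to 0.208). The 434 genes counted only in the Malat1 library had a median length of 3.54 kb, and 41.9% of their Malat1 counts were Genome counts. The most counted of the 434 were the snoRNA Snord82, with 10, 64 and 9 counts and a fold of 10.3 (5.11 to 20.6), and Adamtsl5, with 10, 37 and 9 counts. These genes lie outside the comparison and are named for their counts. Choosing them by counts on either side of the minimum favours extreme folds, and the intervals do not take that choice into account.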

How the data were processed

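The 3 deposited tables held read counts per gene, 1 table for each RIA-seq library, made by the authors from sequencing reads. The submitters' processing notes name Bowtie 0.12.7 and the builds mm9 and NCBIM37. How reads with several matches were assigned, whether the strand was used, and what a Genome count covers are not given in the sources used here. Of 24080 Ensembl identifiers, 98.6% were found in the GENCODE vM1 annotation of NCBIM37, which gave gene types, positions and exons.

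The counts were used as deposited. Counts of a gene symbol on a chromosome were summed and divided by the library total (10405209 for Actb, 10078439 for Malat1 and 14553941 for Tfrc), with no pseudocount. The fold is the ratio of shares for genes that reached 10 counts with both targets, with a 95% interval on the log scale from the counts alone, and a call needs a 2-fold difference. The same was done for Ensembl-ID and Genome counts alone, divided by the same library totals. Intervals of shares are Wilson intervals. With 1 library per condition no test between conditions was made, and the labels do not say how many cultures a library came from. The smallest detectable share was set at 3 counts, 0.298 counts per 1000000 for Malat1, 0.206 for Tfrc and 0.288 for Actb.

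Named genes are the targets and the RNAs the study examined by name, the 10 highest and 10 lowest folds among genes that reached 100 counts with both targets, up to 5 genes in each direction past 2-fold by both kinds of count, and the 2 highest and 2 lowest members of each list and gene type with at least 100 counts. Some genes that this rule or the lists chose are not reported here. Other genes are named as examples of their list or for their known role, 7SK, U3, RNase MRP, the miR-290 to miR-295 hairpins and genes counted in a single library after their values were seen. The genes compared and the lists were chosen with earlier results of these data known. Stretches of 20 bases were compared between exon sequences of NCBIM37. Alternatives were other scalings, including the TMM factors of edgeR 4.0.16 (R 4.3.3), other minimum counts, a pseudocount of 1 and a call by the interval. Computations ran in Python 3.11.15 with pandas 2.3.3, numpy 2.4.6 and scipy 1.17.1, and plots in matplotlib 3.10.9, and the scripts were tested on simulated data.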

Additional observations from a re-analysis of the deposited data

How the results depend on the processing

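No paired analysis was possible because each condition had 1 library and the labels give no replicate numbers, so no replicate could be left out either. In the main analysis the number of genes at least 2-fold higher in Malat1 RIA-seq than in Tfrc RIA-seq was 714, the number of genes at least 2-fold lower in Malat1 RIA-seq than in Tfrc RIA-seq was 316, the median fold over all genes was 1.15, the fold of Malat1 was 1.51 and the fold of Tfrc was 0.864. Scalings that move the median changed all of these. Setting the median to 1.00 gave 357 and 598 with targets at 1.31 and 0.7496, TMM factors 356 and 598 with 0.999, 1.31 and 0.749, equal upper quartiles 345 and 620 with 0.991, 1.30 and 0.743, and totals without the 10 most counted genes 363 and 594 with 1.01, 1.32 and 0.754. Genome counts gave 1138 and 189 with 1.28, 3.53 and 0.679, and divided by their own total 426 higher genes with 1.01, 2.80 and 0.539. Both Malat1 values here rest on 22 Genome counts against 9, the latter under the minimum of 10. The value of 3.53 has an interval of 1.63 to 7.67. Ensembl-ID counts gave a median of 1.11, and divided by their own total 1.16, 1.59 and 0.949. Genes above 0 counts gave 2032, 1836 and 1.13, and genes with at least 50 counts 284, 55 and 1.17. A pseudocount of 1 (685 and 279) and a call by the interval (694 and 316) stayed within 1.5 times. By Genome counts, over the library total and over their own total, the named genes past 2-fold that turned to the other side of 1 included Psma4 (1.78, 1.41), Utf1 (2.44, 1.93), Sec61g (0.582, 0.461) and Gm20544 (0.963, 0.764), with Nanog at 1.12 over the library total. Each of these alternatives uses other counts of the gene by its construction, and the cause of the difference was not tested. Histone, ER chaperone, iron, glycolysis, Polycomb, ribosomal protein, respiratory chain, Tmem, elongation factor and aminoacyl-tRNA synthetase lists changed sides of the all-gene median with Genome counts alone. Depth limits the genes under 30 counts, which hold most of the calls, and the absence of replicates limits all of them.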

Other observations

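Entries that carry the names of transfer RNAs as repeat annotation lists them, chosen after their values were seen, numbered 60 past the minimum. Their median Malat1/Tfrc fold was 1.43, with 12 higher (20.0%, against 4.35% of all genes) and 2 lower (3.33%, against 1.92%), and near-identical copies may share reads. All 60 passed by Genome counts and none by Ensembl-ID counts. By Genome counts 9.86% of all genes were higher and 1.64% lower, with a median of 1.28. Among genes with a single exon 37.5% were higher by Genome counts. Of the hairpin entries of microRNA genes, 23 of 346 passed, with 8 higher (34.8%) and 2 lower (8.70%) and a median of 1.36. Of these, 9 passed by Ensembl-ID counts, with a median of 0.834, and 11 by Genome counts, with a median of 2.05. Pseudogenes had 87 higher (10.3%) and 46 lower (5.45%) among 844, with a median of 1.15 as in all genes, and predicted genes named Gm had 207 (10.3%) and 66 (3.30%) among 2003, with a median of 1.17.

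Within 1000 kb of Tfrc, 35 genes had a median fold of 1.26, with 2 higher and 0 lower, above the median of all genes. The small Cajal body RNAs, which guide the modification of spliceosomal RNAs, had 8 entries past the minimum. Of these, 1 was higher (12.5%, against 4.35% of all genes) and 2 lower (25%, against 1.92%). The highest of them, SCARNA1, had 7 counts in the Actb library, 49 in the Malat1 library and 12 in the Tfrc library, a fold of 5.90 (3.14 to 11.1).

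Genes counted 10 times only in the Malat1 library were protein-coding in 49.1% of 434 cases, and those counted 10 times only in the Tfrc library in 67.0% of 1481.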
